A study of Mus musculus with 6 samples.

Results

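The response of 8 early stress genes to C5a was examined in osteoblasts: the growth arrest and DNA damage genes Gadd45a, Gadd45b and Gadd45g, the polo-like kinases Plk2 and Plk3, the cysteine- and serine-rich nuclear factor Csrnp1, and the Tribbles pseudokinases Trib1 and Trib2. They were named as a set by gene symbol, with earlier results of these data known. Each is reported by 1 probeset that names this gene alone, so that all 8 of 8 were measured among 19938 such genes. Primary osteoblasts came from 3 male wild-type C57BL6/J mice of 8 to 12 weeks, carried the numbers 2, 4 and 5 in the sample labels, were used at passage 2 to 3 and were differentiated osteogenically for 14 days. From each mouse, 1 culture then spent 4 h in proliferation medium with recombinant murine C5a and 1 spent the same 4 h in proliferation medium without it, which gives 3 C5a and 3 unstimulated arrays (6 in all), taken as paired by the number in their labels. No dose series or other time was analysed here, and the change to proliferation medium was common to both groups.

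C5a is the complement fragment that signals through C5aR1, a G protein-coupled receptor that feeds into the MAP kinases. The genes described here belong to the transcripts that stress and growth factor signals switch on quickly and for a short time. The GADD45 proteins are small and have no enzymatic activity of their own. They bind the kinase encoded by Map3k4 and so feed into p38 and JNK, and they also bind PCNA and the CDK1 and cyclin B1 complex. Plk2 and Plk3 carry the polo-box of the mitotic kinase Plk1 but act in stress responses and outside mitosis. Csrnp1 encodes a nuclear transcriptional activator, also known as Axud1. Tribbles proteins resemble kinases, and they bring targets such as the C/EBP factors to the ubiquitin ligase Cop1.

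The letters upstream of these genes are shown because 5 of the 8 had lower values in the C5a culture of every mouse while Gadd45b did not, and the windows let the GADD45 promoters be set beside each other. RefSeq windows (GRCm38.p6) were matched for 7 of the 8 genes, all but Trib1, with 1 start site each except for Csrnp1, which has 4. The 250 bases before the start are printed 5′ to 3′ on the strand of the gene. Capitals mark the octamer ATGCAAAT and CCAAT in the GADD45 windows, the cAMP response element core TGACG in the polo-like kinase windows, and TGACG and the AP-1 site TGACTCA in the most downstream Csrnp1 window, each on either strand.
Gadd45a, chr6:67037408-67037657, minus strand: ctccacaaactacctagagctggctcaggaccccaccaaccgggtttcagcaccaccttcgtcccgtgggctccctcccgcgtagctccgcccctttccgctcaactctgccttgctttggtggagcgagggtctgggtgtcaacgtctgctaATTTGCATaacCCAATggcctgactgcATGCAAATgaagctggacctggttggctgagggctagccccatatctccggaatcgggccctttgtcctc
Gadd45g, chr13:51846425-51846674, plus strand: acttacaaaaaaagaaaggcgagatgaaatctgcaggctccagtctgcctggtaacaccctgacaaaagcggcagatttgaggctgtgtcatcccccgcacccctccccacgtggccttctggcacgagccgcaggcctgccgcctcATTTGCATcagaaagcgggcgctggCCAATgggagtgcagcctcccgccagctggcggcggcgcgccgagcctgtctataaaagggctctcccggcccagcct
Gadd45b, chr10:80929841-80930090, plus strand: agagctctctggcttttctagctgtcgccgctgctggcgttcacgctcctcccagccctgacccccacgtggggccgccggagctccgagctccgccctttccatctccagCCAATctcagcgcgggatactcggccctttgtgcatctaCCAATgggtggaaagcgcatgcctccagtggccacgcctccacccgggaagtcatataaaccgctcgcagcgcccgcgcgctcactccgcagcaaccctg
Plk2, chr13:110394794-110395043, plus strand: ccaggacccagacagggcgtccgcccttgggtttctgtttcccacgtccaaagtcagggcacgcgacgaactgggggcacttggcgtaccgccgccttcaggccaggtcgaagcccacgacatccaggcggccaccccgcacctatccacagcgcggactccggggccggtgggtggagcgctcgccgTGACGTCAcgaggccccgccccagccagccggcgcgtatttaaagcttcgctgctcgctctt
Plk3, chr4:117133964-117134213, minus strand: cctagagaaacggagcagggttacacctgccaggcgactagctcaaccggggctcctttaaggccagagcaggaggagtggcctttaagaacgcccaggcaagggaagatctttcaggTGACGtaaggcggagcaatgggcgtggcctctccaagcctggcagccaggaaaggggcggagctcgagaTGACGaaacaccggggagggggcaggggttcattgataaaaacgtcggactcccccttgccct
Csrnp1, chr9:119983024-119983273, minus strand: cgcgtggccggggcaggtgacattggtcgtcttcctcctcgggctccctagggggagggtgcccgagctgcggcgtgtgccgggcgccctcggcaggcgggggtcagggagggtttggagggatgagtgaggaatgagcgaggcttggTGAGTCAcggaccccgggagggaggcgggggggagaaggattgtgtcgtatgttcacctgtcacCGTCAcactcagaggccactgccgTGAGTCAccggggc

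The octamer was found in the windows of Gadd45a, on both strands, and of Gadd45g, but the Gadd45b window held CCAAT without it. It occurs in 1.60% of the 32851 windows of the table, and CCAAT in 33.8%. Other motifs grouped these genes differently. The E-box CACGTG and the TATA box TATAAA, not marked above, were in the Gadd45b and Gadd45g windows but not in that of Gadd45a. They occur in 6.02% and 12.4% of all windows. The Plk2 window held the full palindrome TGACGTCA, whose first base lies 62 bases before the start and which is present in 1.55% of all windows. Its core TGACG, which the palindrome contains on each strand, was also present in the windows of Plk3 and in all 4 of Csrnp1 and occurs in 17.8% of all windows. The AP-1 site was found in 1 of the 4 Csrnp1 windows, against 4.46% of all windows. That window, the printed one, also held CCAAT on the other strand, as ATTGG, which is not marked above. Trib2, whose window is not printed, had no match to any motif searched. The CArG box of serum response factor and the NF-κB site, searched on both strands, were in none of the 10 windows of the set and in 1.47% and 7.25% of all. These matches describe the letters only. No binding was measured.

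Values are log2 intensities normalized by the robust multiarray average (RMA), fold changes are C5a minus unstimulated on the log2 scale, and tests are limma's, with Benjamini-Hochberg adjustment across the whole table of 35556 probesets. None of the 8 genes passed an adjusted p of 0.05, which 0.0141% of all probesets did. At an unadjusted p under 0.05, limma called 4 of them lower and 0 higher with C5a (Gadd45g, Plk2, Plk3 and Csrnp1), against 5.55% of all probesets called lower and 5.41% called higher. The methods' t-test called 2 lower, Plk3 and Csrnp1 (background 4.46%). The thresholds of the methods are a fold change of at least 1.5 and a p under 0.05, and here Gadd45g, Plk2 and Csrnp1 were lower with limma and 0 were higher. Of all probesets, 1.12% were lower and 1.47% higher by this rule. In the fit blocked by mouse Gadd45a joined them, which made 4 of 8 (background 1.57%), whereas with the methods' t-test Csrnp1 alone passed (background 0.818%).

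**Figure D1:**
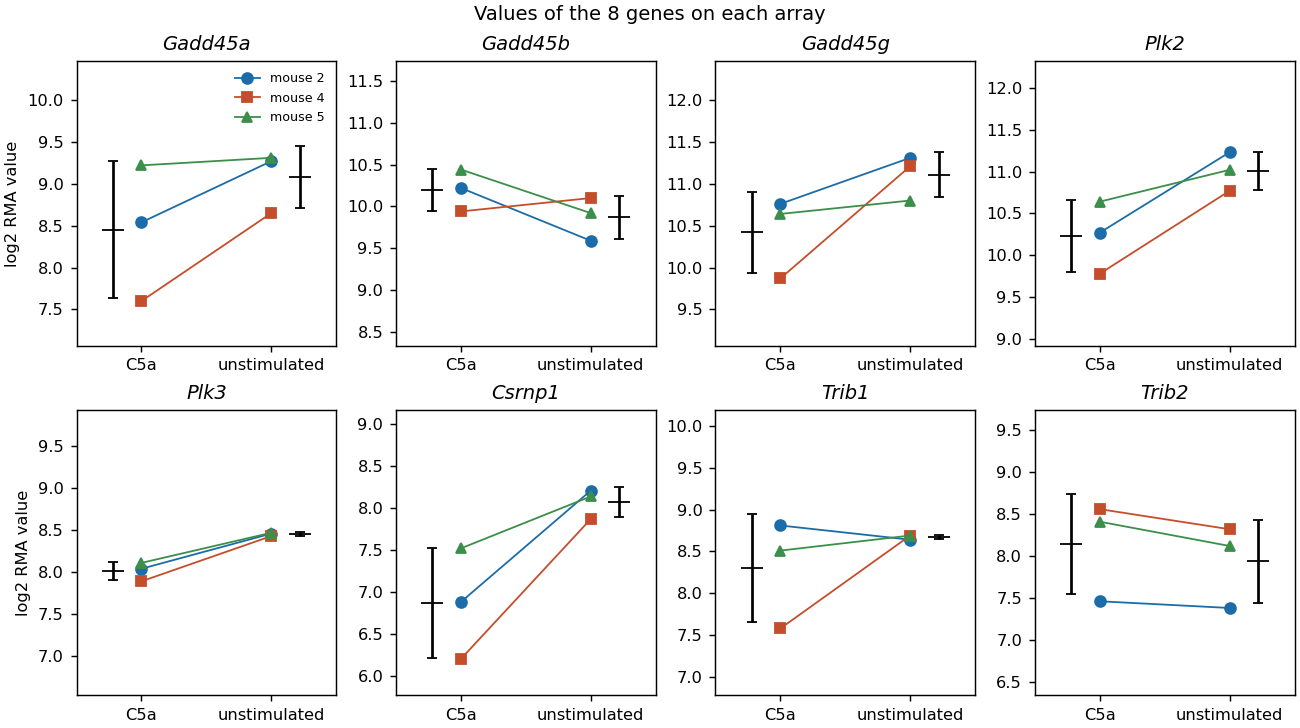
Log2 RMA value of each gene on each of the 6 arrays, C5a left and unstimulated right, with lines joining the cultures of 1 mouse and black bars for the mean ± SD of 3 mice. The axes of all panels have the same length on the log2 scale, but each is centred on the mean of its own gene. Plk3 lay in narrow bands without overlap, between 7.89 and 8.11 with C5a and 8.43 and 8.47 without, while Trib2 was set apart by mouse 2.

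Among the GADD45 genes, Gadd45a and Gadd45g had lower and Gadd45b had higher mean values in C5a-stimulated osteoblasts. Gadd45a, the family member known as a p53 target in DNA damage, had 8.54, 7.60 and 9.22 with C5a in mice 2, 4 and 5, against 9.27, 8.65 and 9.31 in the unstimulated cultures. It was lower with C5a in 3 of 3 mice, but hardly so in mouse 5, and the groups overlapped, with mouse 4 the lowest in both. Its log2 fold change was -0.62 (limma, standard error 0.42, adjusted p = 0.733). Blocking by mouse gave a standard error of 0.19 and an adjusted p of 0.227.

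Gadd45g, also called CR6, had 10.76, 9.87 and 10.64 with C5a in mice 2, 4 and 5, against 11.31, 11.21 and 10.80 in the unstimulated cultures. Every C5a value lay below every unstimulated one, though those of mouse 2 with C5a and mouse 5 without were almost equal. The log2 fold change was -0.68 (limma, standard error 0.27, adjusted p = 0.429), which is 62.3% of the unstimulated level.

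Gadd45b, known as MyD118 and induced by NF-κB and TGF-β in other cells, had 10.22, 9.94 and 10.44 with C5a in mice 2, 4 and 5, against 9.59, 10.10 and 9.92 in the unstimulated cultures. It was higher in mice 2 and 5 and lower in mouse 4, and the groups overlapped. The log2 fold change was 0.33 with a 95% interval of -0.11 to 0.77 (adjusted p = 0.622 from limma). In the blocked fit the interval was -0.12 to 0.78 and the adjusted p 0.468.

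The paralogs were also set against each other on the same array, in 5 pairs within families chosen after the values were seen. The log2 change of Gadd45b minus that of Gadd45g was 1.01 (standard error 0.17 over 3 mice), with 1.19, 1.17 and 0.68 in mice 2, 4 and 5, and the C5a and unstimulated arrays did not overlap in it. The exact two-sided permutation test, which unlike this standard error ignored the pairing by mouse, gave p = 0.1. That is the smallest that 3 against 3 arrays allow, and it was 0.333 adjusted over the 5 pairs. Gadd45a minus Gadd45b came to -0.95 (standard error 0.22, exact permutation p = 0.2, adjusted 0.333) and was below 0 in each mouse, at -1.37, -0.88 and -0.61. Between Gadd45a and Gadd45g the difference was 0.06 (standard error 0.14, exact permutation p = 0.9).

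Both polo-like kinases were lower with C5a in 3 of 3 mice, and for both the groups did not overlap. Plk2, also known as Snk and a kinase that phosphorylates the centriole protein encoded by Cenpj, had 10.27, 9.78 and 10.64 with C5a in mice 2, 4 and 5, against 11.23, 10.77 and 11.02 in the unstimulated cultures. Its log2 fold change was -0.78 (limma, standard error 0.24, adjusted p = 0.301), and blocking by mouse gave a standard error of 0.15 and an adjusted p of 0.12. The drop was close to 1 on the log2 scale in mice 2 and 4 and smaller in mouse 5, at -0.96, -0.99 and -0.38.

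Plk3, a stress-responsive kinase of the same family, had 8.04, 7.89 and 8.11 with C5a in mice 2, 4 and 5, against 8.46, 8.43 and 8.47 in the unstimulated cultures. The unstimulated values were almost equal (SD 0.02, n = 3), and the differences within mice were alike as well, at -0.42, -0.54 and -0.35. The log2 fold change was -0.44 (limma, standard error 0.08), with the smallest adjusted p of the 8 genes (0.155), but at 1.36-fold it stayed under the fold threshold of the methods. Blocked by mouse, the standard error was again 0.08 and the adjusted p 0.112. Plk2 minus Plk3 differed by -0.34 (standard error 0.16, exact permutation p = 0.2, adjusted 0.333).

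Csrnp1 showed the largest difference of the 8 genes. It had 6.88, 6.20 and 7.52 with C5a in mice 2, 4 and 5, against 8.21, 7.87 and 8.14 in the unstimulated cultures. All 3 C5a values lay below the lowest unstimulated one, and they spread more widely (SD 0.66, against 0.18 in unstimulated cells). The log2 fold change was -1.21 (limma, standard error 0.33, adjusted p = 0.257), which is 43.3% of the unstimulated level. Once blocked by mouse, the fit gave a standard error of 0.21 and an adjusted p of 0.114. Csrnp1 was at the thresholds of the methods in 15 of 16 alternative settings, all but the one without mouse 2.

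The Tribbles genes did not share a direction. Trib1, whose product guides C/EBPα to degradation, had 8.81, 7.58 and 8.51 with C5a in mice 2, 4 and 5, against 8.64, 8.69 and 8.69 in the unstimulated cultures. The unstimulated cultures were nearly equal (SD 0.03, n = 3), and with C5a the gene was much lower in mouse 4, slightly lower in mouse 5 and higher in mouse 2. Its log2 fold change was -0.38, with a 95% interval of -1.13 to 0.38 (adjusted p = 0.793 from limma), and without the C5a array of mouse 4 it was -0.02. The blocked interval was -1.05 to 0.29 (adjusted p = 0.597 from limma).

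Trib2 had 7.46, 8.56 and 8.41 with C5a in mice 2, 4 and 5, against 7.38, 8.32 and 8.12 in the unstimulated cultures. Mouse 2 was low in both cultures, and the mouse means spanned 1.02 on the log2 scale, more than the difference between the groups. The gene was higher with C5a in 3 of 3 mice, by 0.08, 0.24 and 0.29, which 18.3% of all probesets also were. Without the block the log2 fold change was 0.20 (limma, standard error 0.37, adjusted p = 0.940), whereas blocking by mouse gave a standard error of 0.08 and an adjusted p of 0.313. Trib1 minus Trib2 was -0.58 (standard error 0.42, exact permutation p = 0.5, adjusted 0.625).

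**Figure D2:**
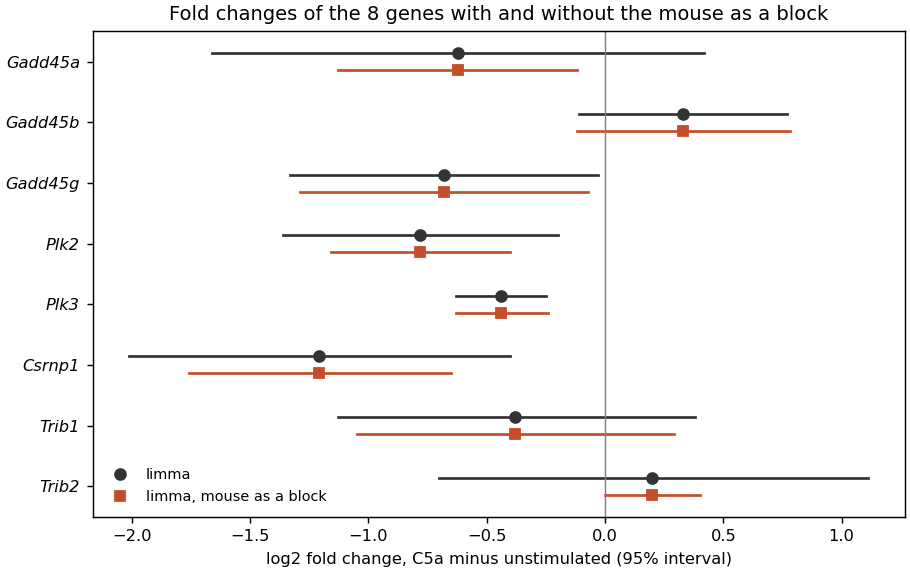
Log2 fold change of each gene (C5a minus unstimulated) with its 95% interval, from limma without the block (black circles) and with the mouse as a block (red squares). The interval of Gadd45a, -1.66 to 0.42 without the block, ran from -1.13 to -0.12 with it. Those of Gadd45g, Plk2, Plk3 and Csrnp1 lay below 0 in both.

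Over the set, Gadd45g, Plk2, Plk3 and Csrnp1 (4 of 8) were lower without overlap of the groups and 0 were higher without overlap, against 7.29% and 7.89% of all probesets. Lower values in 3 of 3 mice were seen for 5 genes, with Gadd45a added, against 17.7% of all probesets. The median log2 fold change of the 8 was -0.53, beside -0.01 over all 19938 genes. A lower value in bulk RNA can come from fewer cells of a type or from less RNA per cell, which cannot be told apart here.

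The difference between the cultures was not equal in the 3 mice. It was lowest in mouse 4 for 7 of the 8 genes, all but Trib2, as it was for 35.2% of all 19938 genes. The median difference of the 8 genes was -0.49, -1.02 and -0.17 in mice 2, 4 and 5. Mouse 5 gave the smallest drop of Gadd45a, Gadd45g, Plk2, Plk3 and Csrnp1. In the same mouse C5ar1, the receptor gene, named here outside the rule for named genes, had 6.09 with C5a and 5.17 without, against 8.84 and 9.11 in mouse 2 and 8.77 and 9.41 in mouse 4. Markers of macrophages and osteoclasts were low in it too: for 12 of 14 both arrays of mouse 5 lay below all others, and the mean level of the list came to 6.52 there, against 9.39 in mouse 2 and 9.66 in mouse 4. This list had mean levels of 6.59 to 9.48 on the C5a arrays and 6.45 to 9.84 on the unstimulated ones, and RMA values have no zero at which a marker could be called absent. None of the 8 genes was below all other arrays in mouse 5 in both cultures. The osteoblast genes Col1a1 and Sparc were high on all arrays, with means of 13.54 ± 0.22 and 14.11 ± 0.09 with C5a and 13.55 ± 0.21 and 14.09 ± 0.05 without (SD, n = 3 each). The 9 measured osteoblast and osteocyte markers were less even, with a mean level of 9.18 in mouse 5, against 10.19 in mouse 2 and 10.75 in mouse 4. Ibsp had a mean of 7.29 in mouse 5, against 11.51 and 12.75 in mice 2 and 4. Sost went the other way, with 7.02 in mouse 5 against 6.67 and 6.75 in mice 2 and 4. Of 6 markers of smooth muscle and pericytes, 0 passed the adjusted p and 3 (Cnn1, Tagln and Des, at 0.63, 0.70 and 1.30) were called higher in the C5a cultures by the fold and p rule of the methods. The mean level of these 6 was 9.31 to 9.61 on the C5a arrays and 8.58 to 9.44 on the unstimulated ones. The others on this list, Acta2, Rgs5 and Myh11, were not called, at 0.11, 0.03 and -0.16. Of 5 chondrocyte markers, 0 passed the adjusted p and 1 was called lower by the same rule, Sox9, a transcription factor of cartilage, at -0.71 (limma, adjusted p = 0.420, lower in 3 of 3 mice). The mean level of these 5 was 8.73 to 9.37 with C5a and 8.76 to 9.38 without. Col10a1 and Col2a1 went the other way from Sox9, at 0.29 and 0.19, and were higher in 3 of 3 mice. Acan had 0.04 and Comp had -0.11. The part of receptor level or of these cell type markers in the values of the 8 genes was not tested.

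**Figure D3:**
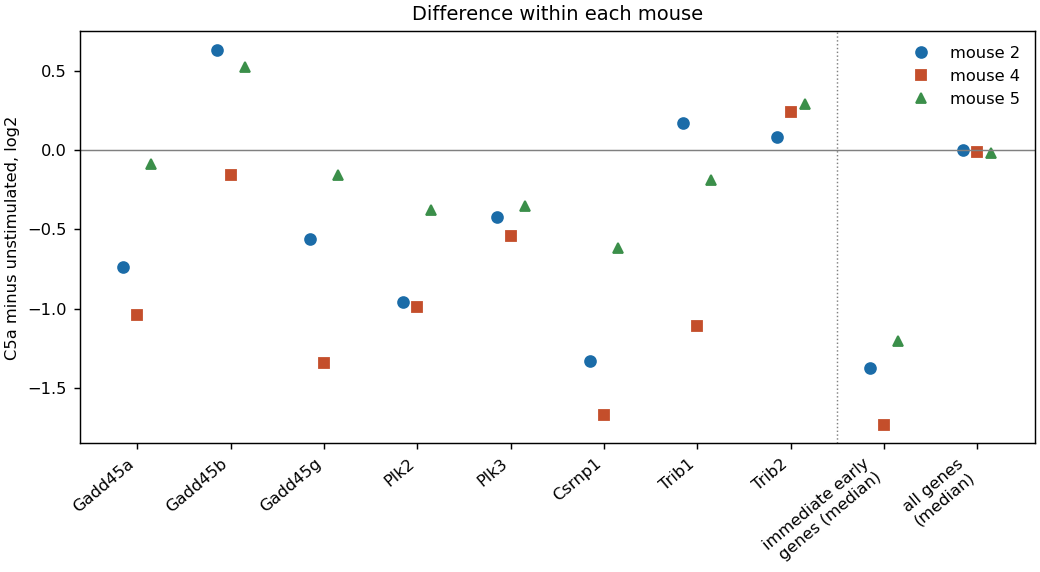
Difference between the C5a and the unstimulated culture of each mouse (log2) for the 8 genes, and the median difference of 29 immediate early genes and of all 19938 genes. Mouse 4 was the lowest for 7 of the 8 genes, and all genes had medians of 0.00, -0.01 and -0.02 in mice 2, 4 and 5.

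Which genes passed the thresholds of the methods depended on single arrays. With limma 3 passed, and 1 (Csrnp1) did without the unstimulated array of mouse 2 or without the C5a array of mouse 4. Without the unstimulated array of mouse 4 or without both arrays of that mouse, 2 passed (Plk2 and Csrnp1), without the C5a array of mouse 5 there were 4 (with Gadd45a), and without both arrays of mouse 2 there were 0. The log2 fold change of Csrnp1 ran from -1.54 to -0.87 over the leave-one-out settings, that of Plk2 from -0.98 to -0.55, that of Gadd45g from -0.95 to -0.36, that of Gadd45a from -1.01 to -0.20 and that of Plk3 from -0.49 to -0.38.

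To see how the surrounding pathways behaved, paralogs and partners were described from lists. Of the 6 further members of the polo-like, Tribbles and CSRNP families, 0 passed the adjusted p or the thresholds of the methods, and the median log2 fold change was -0.04. Csrnp2 stood on the other side of 0 from Csrnp1, with a log2 fold change of 0.34 (limma, standard error 0.10, adjusted p = 0.273) and higher values in 3 of 3 mice. Trib3, induced by ATF4 in other cells, had -0.08 (adjusted p = 0.898), the centriole kinase Plk4 had -0.07 (adjusted p = 0.950) and the mitotic kinase Plk1 had -0.12 (adjusted p = 0.984).

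Of 14 measured GADD45 partners and stress kinases, 0 passed the adjusted p, and 1 was lower and 1 higher at the thresholds of the methods. These were a pair of kinases upstream of p38: Map2k6 with a log2 fold change of -1.07 (limma, standard error 0.22, adjusted p = 0.178, lower in 3 of 3 mice) and Map2k3 with 0.75 (standard error 0.19, adjusted p = 0.228, higher in 3 of 3 mice). Mapkapk2, a substrate kinase of p38, had 0.53 (adjusted p = 0.398) and Mapk11, the β isoform of p38, had 0.36 (adjusted p = 0.429). The list's median was 0.05. Map3k4, the kinase that GADD45 proteins bind, had 0.51 (standard error 0.21, adjusted p = 0.460), and was named beyond the rule for its role.

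Of 8 Tribbles partners, 0 passed either threshold and the median log2 fold change was -0.06. Map2k4 had 0.27 (adjusted p = 0.539), Cop1, the ubiquitin ligase that Tribbles proteins recruit, had -0.16 (adjusted p = 0.542), Cebpa, encoding C/EBPα, had 0.26 (adjusted p = 0.747) and Akt1 had -0.10 (adjusted p = 0.830). Of 8 measured polo-like kinase partners, 0 passed the adjusted p and 1 was higher at the thresholds of the methods, namely Cdc25a, a phosphatase that activates cyclin-dependent kinases, with 0.62 (standard error 0.15, adjusted p = 0.223). Cenpj, the Plk2 substrate, had -0.34 (standard error 0.07, adjusted p = 0.177), the nucleolar Npm1 had 0.48 (adjusted p = 0.280) and the checkpoint kinase Chek2 had -0.36 (adjusted p = 0.425).

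Of 21 measured p53 target genes, 1 passed the adjusted p and 5 were lower and 0 higher at the thresholds of the methods, with a median of -0.16. The one past the adjusted threshold was Btg2, an antiproliferative gene that is also an immediate early gene, with 8.59 ± 0.39 with C5a and 11.81 ± 0.08 without (SD, n = 3 each). Its log2 fold change was -3.22 (limma, standard error 0.20, adjusted p = 0.0354). The others were the sestrins Sesn2 and Sesn1 with -1.04 and -0.73 (adjusted p = 0.146 and 0.233), the mTORC1 inhibitor Ddit4 with -0.85 (adjusted p = 0.245) and, outside the rule for named genes, Trp53inp1 with -0.95 (adjusted p = 0.359). Of 15 measured genes of G2 and mitosis, 0 passed either threshold. Their median was -0.12, and Cdk1, which GADD45 proteins bind, had -0.19 (adjusted p = 0.886). Cdc20, Aurkb and Kif11 had 0.21, -0.24 and -0.37 (adjusted p = 0.892, 0.911 and 0.916).

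The 29 measured immediate early genes had a median of -1.50, beside -0.53 for the 8 genes. Of them 4 passed the adjusted p, all lower, and 18 were lower and 1, Fosl1, was higher at the thresholds of the methods. The 4 were Fos, Zfp36, Btg2 and Egr2, at -4.84, -3.19, -3.22 and -3.41 on the log2 scale (limma, adjusted p = 0.00197, 0.0333, 0.0354 and 0.0354), and Csrnp1 at -1.21 lay inside the range of this list but above its median. Their median difference was -1.37, -1.73 and -1.20 in mice 2, 4 and 5, and in mouse 4 it was lowest for 22 of 29. Differences between this list and the 8 genes were not tested.

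**Figure D4:**
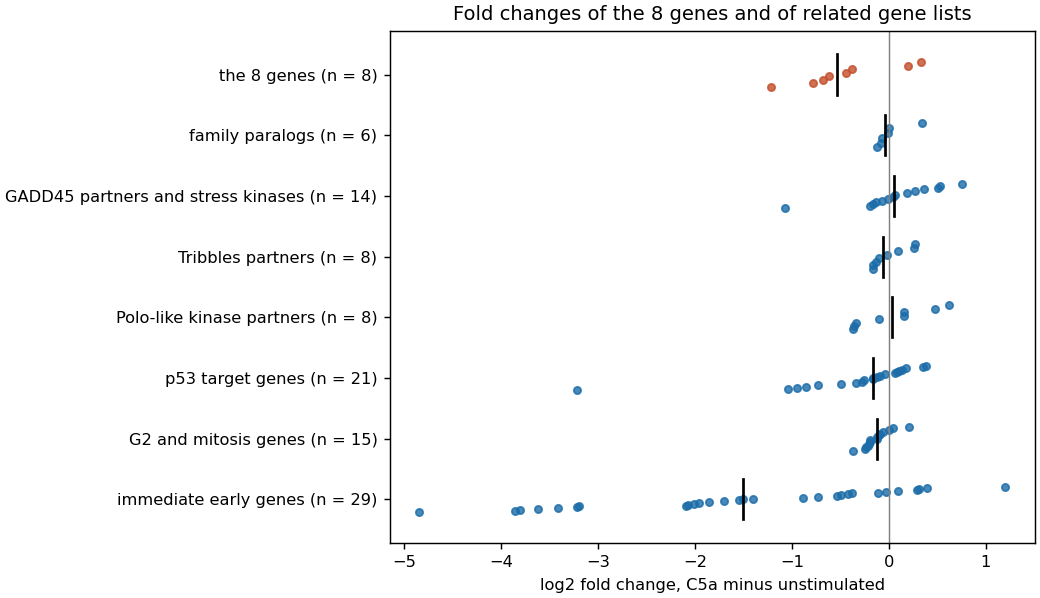
Log2 fold changes (C5a minus unstimulated) of the 8 genes (red, top row) and of the measured genes of 7 lists (blue), 1 point per gene, with a black bar at each median. The 8 genes ran from -1.21 to 0.33, and the immediate early genes reached -4.84.

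For each gene, the gene with the most similar profile was taken as the one with the smallest root mean square difference over the 6 arrays, after each gene's own mean was subtracted, among 19938 genes. Plk3 was followed most closely by Ctps2, an enzyme of CTP synthesis, at 0.02 on the log2 scale, and Gadd45b by Usp13, a deubiquitinase, at 0.05. For Plk2 it was Sfxn5, a mitochondrial carrier, at 0.10, for Trib2 it was Scd1, a fatty acid desaturase, at 0.11, and for Csrnp1 it was Casp12, a caspase, at 0.13. Trib1 was nearest to Spry2, an inhibitor of growth factor signalling, at 0.14, Gadd45a to Gstt1, a glutathione transferase, at 0.15, and Gadd45g to Calcrl, the receptor subunit for adrenomedullin and CGRP, at 0.16. These distances are not scaled to how much each gene varied. Its own root mean square about its mean ran from 0.23 for Plk3 to 0.72 for Csrnp1. Casp12 had 7.66, 7.04 and 8.07 with C5a in mice 2, 4 and 5, against 9.08, 8.46 and 8.82 in the unstimulated cultures, so that it was also lower in every mouse. Its log2 fold change was -1.20 (adjusted p = 0.222 from limma). The 6 arrays share 3 mice, and a close match among this many genes is a description only. None of the 8 genes was nearest to another of the 8.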

How the data were processed

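RNA of each culture was hybridised to its own Mouse Gene 1.0 ST array. For the image data the authors used Affymetrix Expression Console, followed by BRB-ArrayTools (versions not given in the sources used here), normalized the arrays by RMA and deposited log2 intensities per probeset, without centring per gene. These have array medians of 5.89 to 5.93, and RMA compresses changes of dim probesets. All 35556 probesets were compared with limma (version 3.58.1, R 4.3.3) by lmFit and eBayes without filter or further normalization, and the number of arrays limits the precision. Probesets were named through the platform annotation, and of several per gene the one with the highest mean was used.

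The submitters' design text says that each mouse gave both cultures, and the numbers 2, 4 and 5 in the sample titles were taken as the mice, so that replicates are separate animals. Deviations from the group means correlated at 0.495 to 0.684 within mice and -0.446 to -0.035 between mice. The main fit has no block, as in the methods' t-test, which was run unpaired with equal variances and read at an unadjusted p under 0.05 and 1.5-fold. The exact permutation test was run in SciPy (version 1.17.1), without pairing by mouse.

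The genes and lists were chosen with earlier results of these data known. Named genes were all 8, up to 4 per list with the smallest p, the most similar gene to each, and markers where they bear on a value. Besides those reported, the markers of endothelium, adipocytes, and smooth muscle and pericytes had median log2 fold changes of -0.04, -0.19 and 0.37, those of chondrocytes 0.04, and those of osteoblasts and osteocytes -0.01. Macrophage and osteoclast markers had -0.17, with 11 of 14 below 0. The limma step was tested on simulated data with known changes. These were drawn without differences between mice, so that the test does not bear on how the pairing affects the p values here. Alternatives were blocking by mouse, the methods' t-test, robust empirical Bayes estimation with an intensity trend, leaving out probesets under the 40th percentile, probesets naming 1 gene, median centring, quantile normalization, and leaving out each array or mouse.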

Additional observations from a re-analysis of the deposited data

How the results depend on the processing

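All 8 genes stayed short of an adjusted p of 0.05 in each of the 16 alternatives, and 7 of them kept their direction in all 16. Trib2 turned to -0.08 without the unstimulated array of mouse 2 and to -0.01 without the C5a array of mouse 4, and lay between these and 0.54 over the leave-one-out settings. Without both arrays of mouse 2, 4 or 5 it stayed above 0, at 0.26, 0.18 and 0.16. The cause of the reversals was not tested. The methods' t-test gave 0 probesets past an adjusted p of 0.05, against 5 with limma, and 665 past the thresholds of the methods, and called 1 of the 8 genes lower there, against 3. Leaving out an array or a mouse gave 0 to 2 probesets past the adjusted p, 587 to 1314 past the thresholds of the methods, against 923, and 0 to 4 of the 8 genes lower. With the mouse as a block (replicate block), 4 probesets passed the adjusted p, 1166 passed the thresholds of the methods, and 4 of the 8 genes were lower, since Gadd45a was added. This block changed no other call of the 8 genes. Quantile normalization left 2 of the 8, without Gadd45g. Each of the 8 genes has 1 probeset, so that no other probeset could be tried. With 3 arrays a group, changes like those of Gadd45a, Gadd45b, Trib1 and Trib2 cannot be told from 0 in the main fit. The intervals of these genes included 0, at -1.66 to 0.42 for Gadd45a and -1.13 to 0.38 for Trib1. With the mouse as a block, the interval of Gadd45a was -1.13 to -0.12, and those of Gadd45b, Trib1 and Trib2 still reached 0. The lower values of Gadd45g, Plk2, Plk3 and Csrnp1 did not pass the adjusted p either.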
